A study of Drosophila melanogaster with 120 samples.

Results

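The genes mio (missing oocyte) and Wdr24 encode 2 subunits of GATOR2, and their transcripts were followed by tissue, age and breeding regime in Drosophila melanogaster females. They are 2 of the 16637 transcripts on the array and were picked by transcript number, with earlier results of these data known, by a rule that uses no measured value. Transcript FBtr0077835 carries mio (CG7074, chromosome arm 2L), which has 1 transcript in the RefSeq gene table. Transcript FBtr0085543 carries Wdr24 (CG7609, chromosome arm 3R), which has 2 RefSeq transcripts, and the array value is labelled with that FlyBase transcript. Whether its probes also detect another Wdr24 transcript was not tested, as no sequence was at hand.

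GATOR2 is a protein complex that sits upstream of TORC1, the kinase complex that drives growth and protein synthesis when amino acids are plentiful and holds back autophagy. GATOR1 shuts TORC1 down when amino acids are scarce, and GATOR2 opposes GATOR1. In Drosophila, mio is known for its need in the female germ line, where the oocyte of mutants fails to keep its identity and its meiotic programme. Wdr24 is known there for keeping TORC1 active and for growth, and for a part in the function of lysosomes. Abdomens of adult females hold the ovaries, the fat body and the gut, while heads hold the brain, the eyes and a smaller fat body. The RNA came from whole heads or whole abdomens, so fewer cells of a type and less RNA per cell cannot be told apart.

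Selection populations had been bred for late reproduction, with mating delayed until day 28 and later day 40 of adult life, while the controls mated on day 14. All came from a base population founded with wild-caught females, and after 35 generations unmated females held at 25 °C were taken at ages of 1, 5, 15, 30 and 50 days. With 3 populations a regime, 2 biological replicates of each and both tissues, the design has 20 groups of 6 arrays, 120 arrays in all. The population is the unit that was selected, so replicates were averaged within each population, tissue and day, and n counts populations. The labels do not say how many flies were pooled for a sample, and the RNA was amplified before it was labelled.

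Values are log2 intensities, so a difference of 1 is 2-fold. Array medians lay between 9.45 and 10.03 in heads and between 9.92 and 10.44 in abdomens. None of 21 tissue marker genes and none of 26 further genes of the TORC1 pathway could be tied to a transcript number of the array, so the tissue labels were not checked against markers and the rest of the pathway was not analysed here. Some arrays stood apart. On a score of day-1 transcripts, 1 is the median of day-1 arrays and 0 that of later days, taken from populations of other numbers. Among the heads, 5 arrays had a score opposite to their labelled day. They were day 1 of control population 3 (both replicates, -0.0504 and -0.0437), day 30 of selection population 3 (1.05), day 30 of control population 3 (0.941) and day 50 of control population 2 (1.23). The day-1 arrays of control population 1 lay in between, at 0.468 and 0.455 in heads and 0.542 and 0.536 in abdomens. A further measure, the median correlation with the other arrays of a group, was under 0.95 for 7 head and 3 abdomen arrays.

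Both subunits were measured at lower levels in heads than in abdomens. Over the 60 arrays of each tissue, mio ran from 8.51 through a median of 9.38 to 10.11 in heads, against 9.45, 10.30 and 10.87 in abdomens. Wdr24 ran from 9.37 through 10.12 to 10.87 in heads, against 10.29, 11.49 and 12.55 in abdomens. Single arrays of the 2 tissues overlapped for both genes, and population averages over the days overlapped for neither. The share of all transcripts whose groups do not overlap was not counted, here or for the days and regimes below.

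The average of mio over days was 9.32, 9.48 and 9.39 in heads of selection populations 1, 2 and 3, and 9.40, 9.12 and 9.33 in heads of control populations 1, 2 and 3. In abdomens of the same populations mio averaged 10.15, 10.20 and 10.35 under selection and 10.59, 10.01 and 10.29 in controls. The mean was 9.34 ± 0.123 in heads and 10.27 ± 0.199 in abdomens (SD, n = 6 populations), a difference of -0.93 (SE 0.0814, 95% confidence interval -1.10 to -0.75), or 1.90-fold lower in heads, with an adjusted p of 1.46e-07 in limma. All 6 populations had the lower value in heads.

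For Wdr24 the average was 10.15, 10.12 and 10.17 in heads of selection populations 1, 2 and 3, and 10.30, 10.06 and 9.98 in heads of the controls. The abdomens of the same populations had 11.52, 11.28 and 11.40 under selection and 11.68, 11.43 and 11.62 in controls. The mean was 10.13 ± 0.109 in heads and 11.49 ± 0.146 in abdomens (SD, n = 6), a difference of -1.36 (SE 0.0781, interval -1.53 to -1.19), or 2.57-fold lower in heads, with an adjusted p of 1.66e-09 in limma. It was lower in heads in 6 of 6 populations.

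Such a difference was common on these arrays. Limma called 87.4% of the transcripts for tissue in either direction and 62.9% as lower in heads, and 23.2% were called and lower in heads by at least 2-fold, which Wdr24 reached in the deposited scaling alone and mio did not. As deposited, 25.4% of transcripts had a more negative difference than mio and 15.1% a more negative one than Wdr24. The size moved with the scaling. For mio, head minus abdomen was -0.93 as deposited, -0.62 after quantile normalization over all arrays and -0.49 after centring each array on its median. For Wdr24 it was -1.36, -0.78 and -0.93 under the same scalings, short of 2-fold after either rescaling. The difference of the median transcript was -0.25, -0.03 and 0.18. Relative to the median transcript, mio was -0.675 and Wdr24 -1.11 as deposited, which centring leaves as they are by construction, and -0.59 and -0.75 after quantile normalization. The calls over all transcripts split into 4068 higher and 10469 lower in heads as deposited, 6101 and 6888 after quantile normalization, and 8702 and 5877 after centring. Both members were lower in heads under each of these scalings.

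Both genes were called lower in heads on each of the 5 days. Head minus abdomen was -1.03, -0.82, -0.96, -0.78 and -1.05 for mio on days 1, 5, 15, 30 and 50, with adjusted p-values of 0.000615, 0.000611, 0.000264, 0.000587 and 2.09e-05 in limma. For Wdr24 it was -0.77, -1.56, -1.63, -1.59 and -1.26, with adjusted p-values of 0.0014, 1.39e-06, 2.37e-06, 1.7e-06 and 4.56e-06. On each day both genes were lower in the head in 6 of 6 populations. Heads and abdomens of the populations overlapped for mio on day 5 and for Wdr24 on none of the 5 days, as deposited. On day 1 the gap for Wdr24 was narrow, with the highest head population at 10.44 and the lowest abdomen population at 10.45. The share of all transcripts called lower in heads was 49.9%, 55.3%, 48.9%, 52.3% and 56% on the 5 days. On day 1 that was 8310 transcripts as deposited, 4177 after quantile normalization and 3955 after centring, and the other days moved likewise. The differences of mio on the 5 days lay between -0.78 and -0.48 after quantile normalization and between -0.59 and -0.38 after centring, and all stayed past the test. Those of Wdr24 from day 5 on lay between -1.04 and -0.64 and between -1.22 and -0.80, and passed too. The call for Wdr24 on day 1 depended on the scaling, with a difference of -0.28 and an adjusted p of 0.151 after quantile normalization and -0.33 and 0.0704 after centring.

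**Figure D1:**
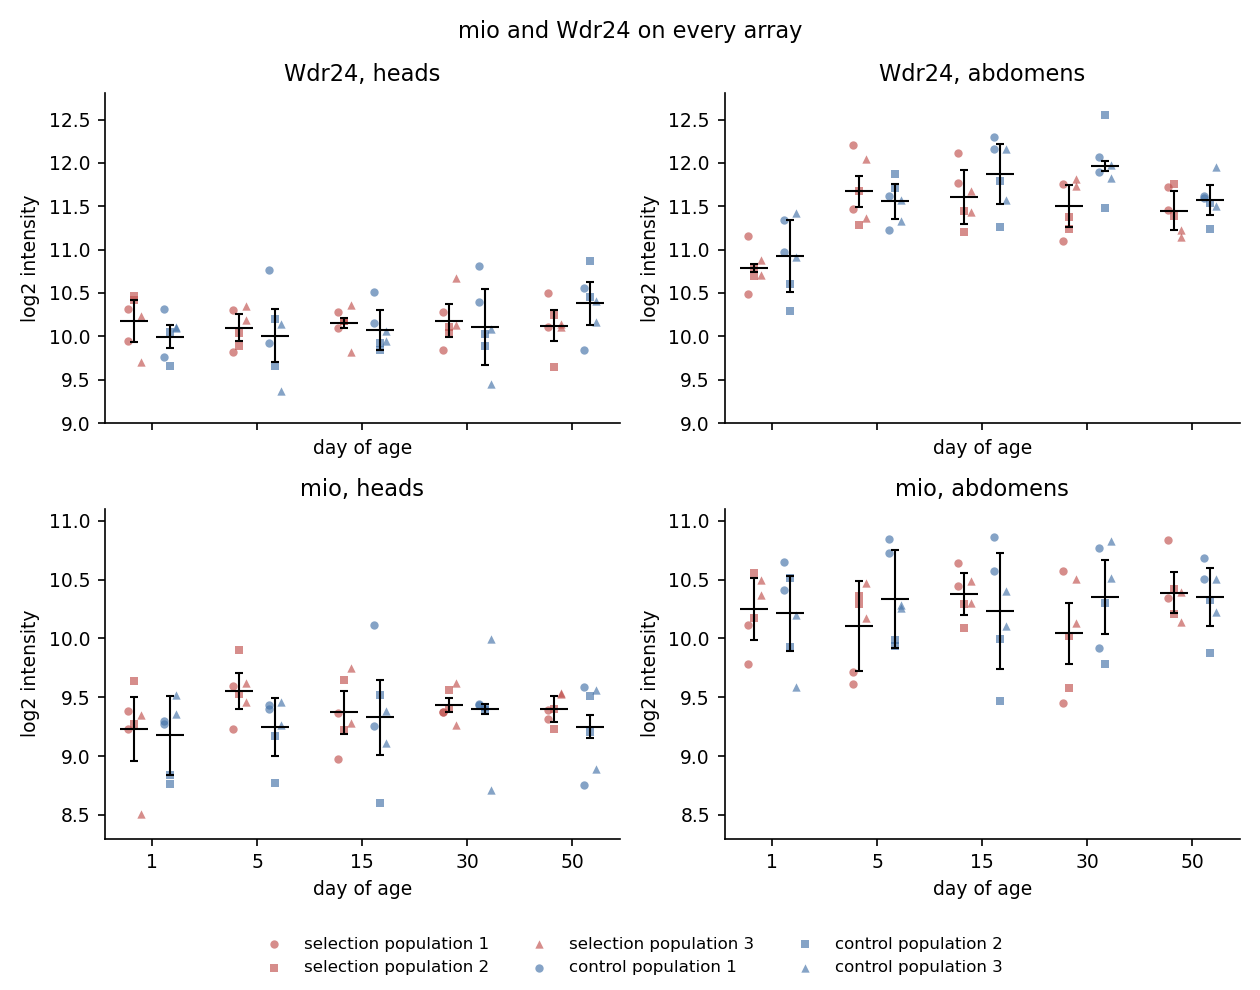
Log2 intensity of mio and Wdr24 by day in heads and abdomens, with a point for each array and the mean ± SD over the 3 populations of each regime. Over the 6 populations of both regimes together, the mean of Wdr24 in abdomens is 10.85 on day 1 and at least 11.51 later. That of mio in heads, over the same populations, is also lowest on day 1, at 9.20 against 9.33 to 9.42 later. This smaller step did not pass the test between days 1 and 5.

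Wdr24 rose in abdomens over the first days of adult life, and mio did not pass the test there. On day 5, Wdr24 in abdomens was 11.83, 11.48 and 11.71 in selection populations 1, 2 and 3 and 11.42, 11.79 and 11.45 in control populations 1, 2 and 3. On day 1 it was 10.82, 10.73 and 10.80 in the selection populations and 11.15, 10.45 and 11.17 in the controls. Every day-5 average of a population lay above every day-1 average, and the share of all transcripts like this was not counted. Single arrays overlapped, with the highest at 11.42 on day 1 and the lowest at 11.23 on day 5.

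The means were 11.61 ± 0.185 on day 5 and 10.85 ± 0.273 on day 1 (SD, n = 6), a rise of 0.76 (SE 0.143, interval 0.46 to 1.06) or 1.69-fold, with an adjusted p of 0.000102 in limma. All 6 populations were higher on day 5, by 1.01, 0.75 and 0.91 in selection populations 1, 2 and 3 and by 0.27, 1.34 and 0.28 in controls 1, 2 and 3. Many transcripts changed in abdomens at this age, with 50.3% called in either direction and 26.5% as higher on day 5. The rise of Wdr24 was larger than the difference of 86.8% of all transcripts. It was 0.80 without the day-1 arrays of control population 1, whose day-1 score lay in between. The smallest value among the alternatives, 0.58, was that without control population 2.

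In abdomens mio averaged 10.22 ± 0.379 on day 5 and 10.23 ± 0.261 on day 1 (SD, n = 6), a difference of -0.01 with an interval of -0.35 to 0.33 (adjusted p 0.969 in limma). It was higher on day 5 in 2 populations and lower in 4. The change of Wdr24 minus that of mio in abdomens was 0.77 ± 0.686 (SD, n = 6) and was positive in 5 of 6 populations. It did not pass an exact two-sided sign-flip permutation test over populations, with p = 0.0938 and an adjusted p of 0.156 over the 5 such comparisons made. After that adjustment a single comparison cannot pass, even with all 6 populations in 1 direction.

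In heads neither member passed the test between day 5 and day 1. The level of mio was 9.40 ± 0.248 on day 5 and 9.20 ± 0.274 on day 1, a difference of 0.20 (interval -0.06 to 0.45, adjusted p 0.291), with 5 of 6 populations higher on day 5. The exception was control population 3 (-0.08), whose day-1 head arrays both scored like later days. Wdr24 was at 10.05 ± 0.221 on day 5 and 10.09 ± 0.199 on day 1, a difference of -0.03 (interval -0.33 to 0.26, adjusted p 0.908), and control population 3 had -0.35. Without the 5 heads of opposite score the differences were 0.24 for mio (adjusted p 0.215) and 0.02 for Wdr24 (adjusted p 0.929), and the part of these arrays in the result was not tested further. Limma called 19.5% of transcripts in heads at this age, which is 3249, and between 1612 and 2094 without selection population 1 or 2 or control population 1 or 2.

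The difference of Wdr24 between day 5 and day 1 itself differed between tissues. Head minus abdomen for this change was -0.79 (SE 0.188, interval -1.18 to -0.40, adjusted p 0.00148 in limma), lower in the head in 5 of 6 populations. The same quantity was 0.21 for mio (interval -0.22 to 0.64, adjusted p 0.47). Limma called 41.3% of transcripts for it.

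**Figure D2:**
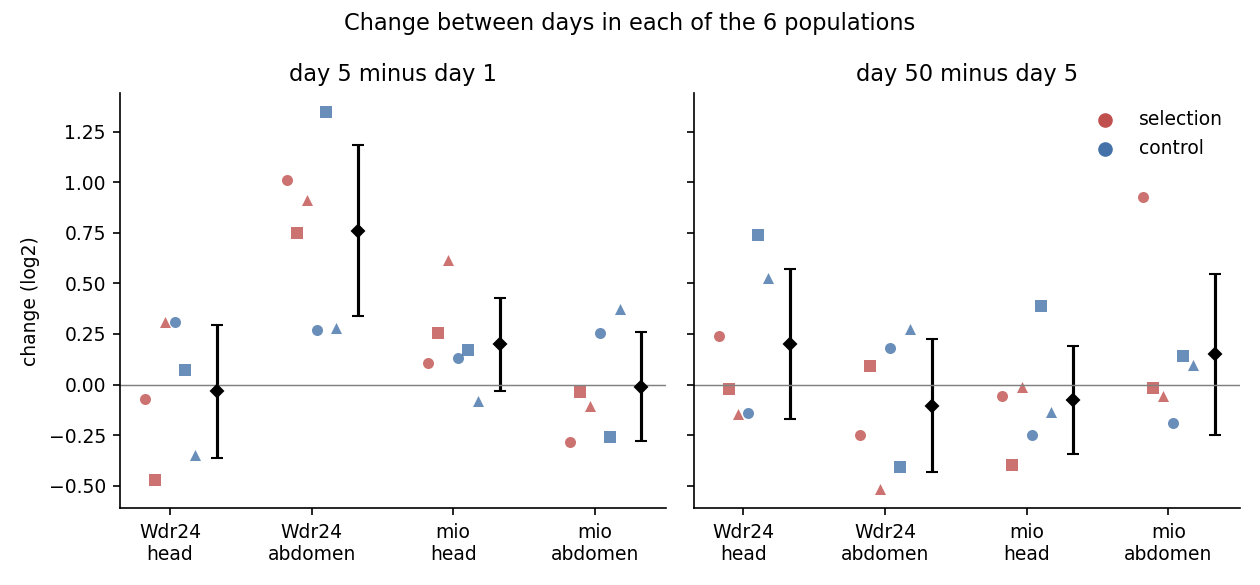
Change in log2 intensity from day 1 to day 5 and from day 5 to day 50 for each population, in heads and abdomens, for mio and Wdr24, with the zero line. The 6 values of Wdr24 in abdomens for day 5 against day 1 all lie above 0, between 0.27 and 1.34.

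**Figure D3:**
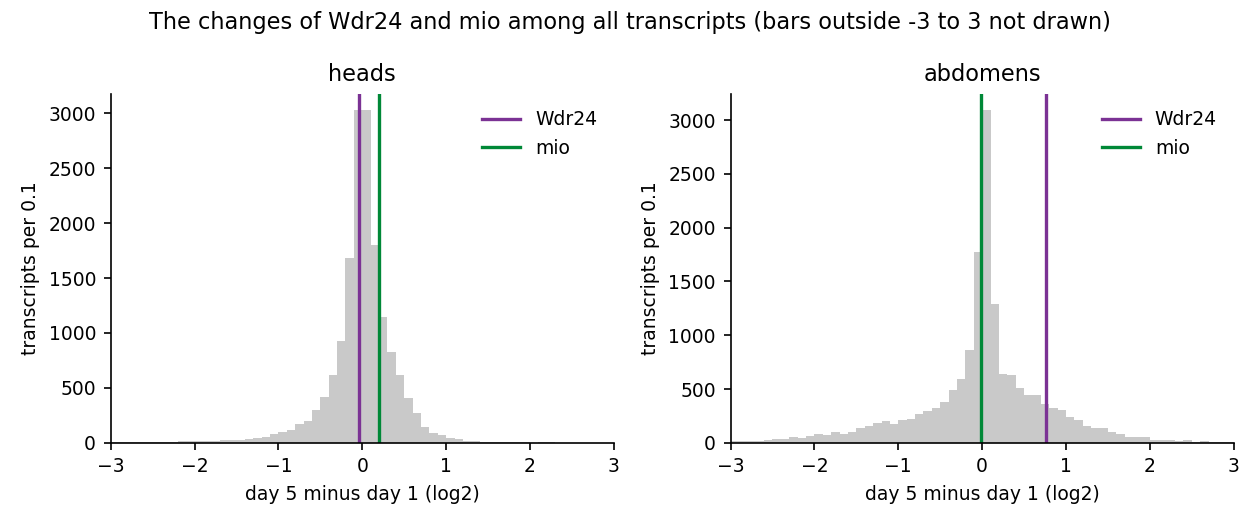
Number of the 16637 transcripts by their difference of day 5 minus day 1 in abdomens (log2), with lines at mio (-0.01) and Wdr24 (0.76). Wdr24 lies in the upper tail, above 86.8% of the transcripts, and mio near the middle.

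From day 5 on, no difference between days passed the test for either member. Over days 5, 15, 30 and 50, the mean of mio in heads was 9.40, 9.35, 9.42 and 9.33, a range of 0.092 beside a mean SD between populations of 0.164. In abdomens mio was at 10.22, 10.31, 10.20 and 10.37, a range of 0.174 beside an SD of 0.305. Neither order of days was clear of the spread between populations. That SD includes lasting differences between populations, which the limma tests below take out.

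Wdr24 in heads had means of 10.05, 10.11, 10.14 and 10.25 on days 5, 15, 30 and 50, a range of 0.199 beside an SD of 0.231. In abdomens it had 11.61, 11.74, 11.74 and 11.51, a range of 0.229 beside an SD of 0.251. The F test over the 4 days in limma gave adjusted p-values of 0.965 for mio and 0.9 for Wdr24 in heads, where 0.697% of transcripts were called. It gave 0.992 for mio and 0.98 for Wdr24 in abdomens, where 0.944% were called.

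Day 50 minus day 5 was -0.08 for mio (interval -0.33 to 0.18, adjusted p 0.944) and 0.20 for Wdr24 (interval -0.10 to 0.49, adjusted p 0.738) in heads, with 1.76% of transcripts called. In abdomens it was 0.15 for mio (interval -0.19 to 0.49, adjusted p 0.933) and -0.10 for Wdr24 (interval -0.40 to 0.19, adjusted p 0.959), with 0.914% called. These shares are of few transcripts and moved with single populations, with 103 called in heads without selection population 1, against 293 with all, and 45 in abdomens without selection population 3, against 152 with all. The tissue difference in this change was -0.23 for mio (adjusted p 0.846) and 0.30 for Wdr24 (adjusted p 0.681), where 1.06% of transcripts were called.

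Ordered by level, the 10 combinations of tissue and day had all 5 abdomen means above all 5 head means for both genes. For Wdr24 the abdomens of days 15, 30, 5 and 50 came first, and the F test over these 4 days did not pass. The day-1 abdomen stood next at 10.85 ± 0.273, with its highest population at 11.17 just under the lowest day-50 population at 11.19. Its lowest population, at 10.45, overlapped the heads, which ran from 10.25 ± 0.239 on day 50 to 10.05 ± 0.221 on day 5, again without a clear order. For mio the abdomens ran from 10.37 ± 0.192 on day 50 to 10.20 ± 0.308 on day 30 and the heads from 9.42 ± 0.0494 on day 30 to 9.20 ± 0.274 on day 1, and neighbours within a tissue differed by less than their spread.

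No difference between selection and control populations passed the test for either member. In heads, averaged over days, mio was at 9.40 ± 0.0796 in selection populations and 9.28 ± 0.146 in controls (SD, n = 3 each), a difference of 0.12 (interval -0.11 to 0.35, adjusted p 0.577 in limma). Wdr24 in heads was at 10.15 ± 0.0260 in selection populations and 10.11 ± 0.167 in controls, a difference of 0.03 (interval -0.21 to 0.28, adjusted p 0.894). The populations of the 2 regimes overlapped for both genes.

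In abdomens mio was at 10.23 ± 0.102 in selection populations and 10.30 ± 0.291 in controls, a difference of -0.07 (interval -0.45 to 0.31, adjusted p 1). Wdr24 in abdomens was at 11.40 ± 0.119 in selection populations and 11.58 ± 0.127 in controls, a difference of -0.18 (interval -0.43 to 0.08, adjusted p 1). Limma called 0% of transcripts for regime in either tissue, while 2755 transcripts in heads and 225 in abdomens had an unadjusted p under 0.05. The regime difference in heads minus that in abdomens was 0.18 for mio and 0.21 for Wdr24 and did not pass the test (adjusted p 0.959 for both, 0% of transcripts called, 556 at an unadjusted p under 0.05).

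Within single days, none of the 20 comparisons of selection with control (2 genes, 2 tissues, 5 days) passed the test. In heads the selection minus control difference of mio was 0.05, 0.31, 0.04, 0.03 and 0.15 on days 1, 5, 15, 30 and 50, and that of Wdr24 was 0.18, 0.09, 0.08, 0.07 and -0.26. In abdomens it was 0.03, -0.23, 0.14, -0.31 and 0.04 for mio and -0.14, 0.12, -0.27, -0.46 and -0.12 for Wdr24. Limma called 0.00601% of transcripts in abdomens on day 5, which is 1 transcript and neither member, and 0% in abdomens on the other days and in heads on all 5. The number with an unadjusted p under 0.05 ran from 120 in abdomens on day 15 to 4114 in heads on day 5. Without control population 2, limma called 2471 transcripts in heads on day 5 and 458 on day 1, again neither member.

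The difference farthest from 0 among the 20 was that of Wdr24 in abdomens on day 30. Selection populations 1, 2 and 3 had 11.43, 11.31 and 11.77, and control populations 1, 2 and 3 had 11.98, 12.02 and 11.91. The regimes did not overlap, but how many of all transcripts were likewise without overlap was not counted. The means were 11.50 ± 0.240 under selection and 11.97 ± 0.0565 in controls (SD, n = 3 each), a difference of -0.46 (interval -0.89 to -0.04). Its unadjusted p in limma was 0.0351, the 170th smallest, and its adjusted p 0.998. Among all transcripts that day, 0% were called and 243 had an unadjusted p under 0.05. The difference of Wdr24 was -0.69 from biological replicate 1 alone and -0.24 from replicate 2 alone.

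**Figure D4:**
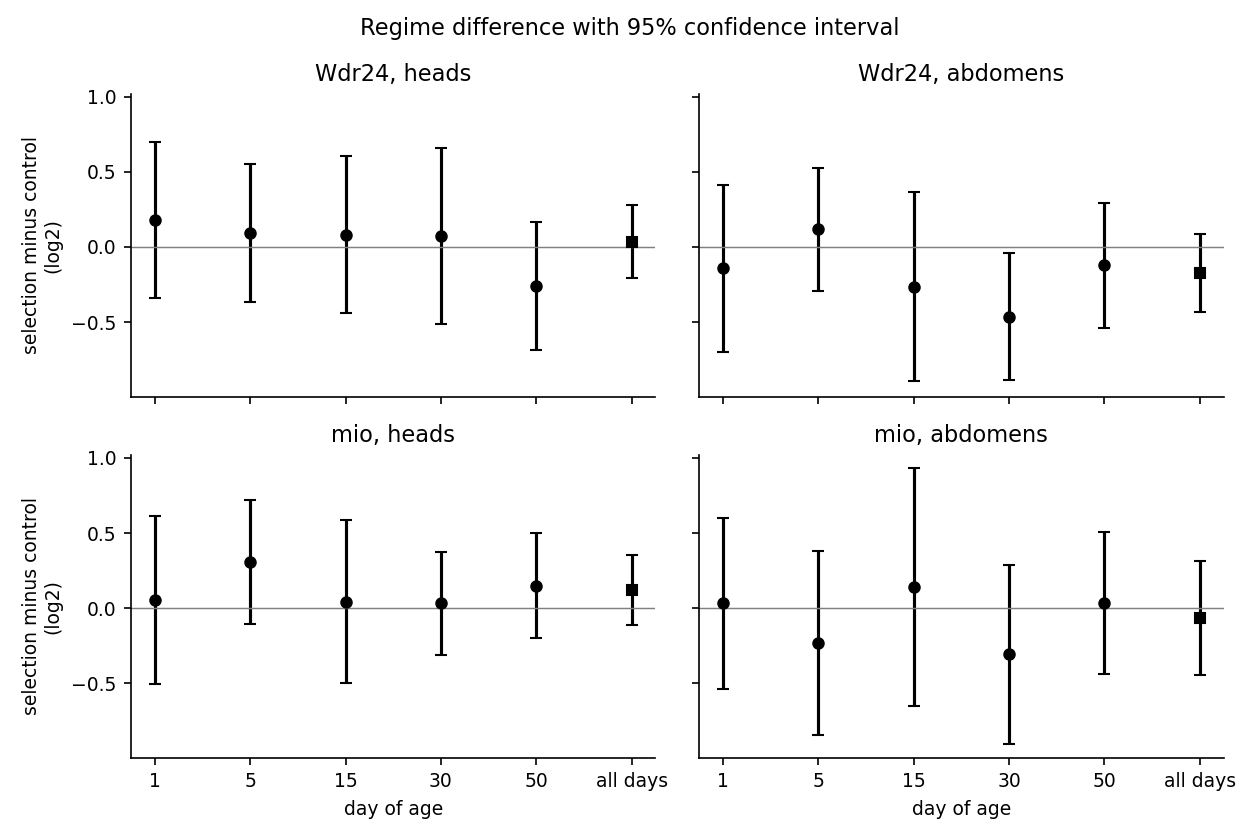
Selection minus control difference in log2 intensity on each day for mio and Wdr24 in heads and abdomens, with 95% confidence intervals from limma. The interval of Wdr24 in abdomens on day 30, -0.89 to -0.04, is the only 1 of the 20 that leaves out 0, before adjustment over transcripts.

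No regime difference in the change with age passed the test for either member. For day 5 minus day 1, selection minus control was 0.25 for mio and -0.09 for Wdr24 in heads (0% of transcripts called, 574 without control population 2, and 1983 at an unadjusted p under 0.05), and -0.27 for mio and 0.26 for Wdr24 in abdomens (0.00601% called). The rise of Wdr24 in abdomens averaged 0.89 ± 0.133 in selection populations and 0.63 ± 0.618 in controls (SD, n = 3 each), with the 3 controls spread from 0.27 to 1.34 around the 3 selection values. For day 50 minus day 5 it was -0.16 for mio and -0.35 for Wdr24 in heads (0% called, 157 at an unadjusted p under 0.05), and 0.27 for mio and -0.24 for Wdr24 in abdomens (0% called, 840 at an unadjusted p under 0.05).

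The sources of variation differed between the 2 genes and tissues. Of the sum of squares over the 60 arrays of a tissue, day took 51.6% for Wdr24 in abdomens, against 4.89% for Wdr24 in heads, 3.35% for mio in abdomens and 5.99% for mio in heads. Regime took at most 3.64%, for Wdr24 in abdomens, and day by regime at most 6.05%, for mio in abdomens. Day by population within regime, with 16 of the 59 degrees of freedom, took 29.9% for Wdr24 in heads, 29.5% for mio in abdomens, 20.3% for mio in heads and 14.4% for Wdr24 in abdomens. Differences between populations of a regime took 25.8% for mio in abdomens, where control population 1 averaged 10.59 and control population 2 10.01, and between 4.80% and 10.1% in the other 3 cases. Differences between biological replicates, with 30 of the 59 degrees of freedom, took the largest share for mio in heads (57.8%), Wdr24 in heads (48.9%) and mio in abdomens (34.4%), and 21.3% for Wdr24 in abdomens.

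The SD between biological replicates was 0.334 for mio and 0.305 for Wdr24 in heads, where the median transcript had 0.311. In abdomens it was 0.291 for mio and 0.300 for Wdr24, where the median transcript had 0.267. Both genes lay in the middle of the intensity range, with 43.4% of transcripts below mio and 52.9% below Wdr24 in heads, and 49.3% below mio and 62.7% below Wdr24 in abdomens.

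The 2 subunits varied together only loosely. Across the 30 averages of population and day, Pearson's r between mio and Wdr24 was 0.355 in heads and 0.158 in abdomens, and 0.403 and 0.239 after the mean of each day was taken out. In heads, 86.3% of the other transcripts correlated less with mio than Wdr24 did, and in abdomens 62.4%. These averages share arrays and populations, so the correlations are descriptions only. The transcript most like mio was FBtr0070367 in heads (r = 0.826) and FBtr0088841 in abdomens (r = 0.859). The most like Wdr24 was FBtr0083558 in heads (r = 0.801) and FBtr0073149 in abdomens (r = 0.925), and the files pair none of these numbers with a gene name.

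Between tissues, the head minus abdomen difference of Wdr24 was more negative than that of mio by 0.43 ± 0.180 (SD, n = 6) on the log2 scale, in 6 of 6 populations. The exact two-sided sign-flip permutation test gave p = 0.0312, the smallest that 6 populations allow, and an adjusted p of 0.156 over the 5 comparisons of the genes. A single comparison at the smallest p cannot pass after this adjustment, so the adjusted value cannot decide whether the genes differ. After quantile normalization over all arrays the difference was -0.16, with an exact p of 0.125. The other 3 of these comparisons, of the change from day 1 to day 5 in heads (-0.23, exact p = 0.125) and of that from day 5 to day 50 in heads (0.28, exact p = 0.0938) and abdomens (-0.25, exact p = 0.406), did not pass either.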

How the data were processed

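Total RNA of heads and abdomens was amplified, labelled with Cy3 and hybridised to NimbleGen 1-colour arrays, per the labels' protocols. The deposited values are log2 intensities, 1 per FlyBase transcript, made with RMA per the submitters' processing notes. RMA as usually run removes background, normalizes arrays by quantiles and combines the probes of a transcript. The medians of the deposited arrays differ within each tissue (by up to 0.584 in heads and 0.520 in abdomens). Whether the arrays share 1 scale was not tested. Not given in the sources used here are its version, the build, the annotation and whether heads and abdomens were normalized together. Deposited values were used unchanged and unfiltered. Arrays give no depth, and their number limits the precision.

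Groups came from the labels. The title of 1 day-15 head of control population 3 gives replicate 3 where its characteristics give biological replicate 1, which was used. Biological replicates were averaged within each population, tissue and day, and the 3 populations of a regime were the replicates. The labels speak of pairs of selection and control populations without tying the pairs to population numbers, and a check of the numbers stands in the closing section. With limma 3.58.1 in R 4.3.3 (lmFit, eBayes with an intensity trend, two-sided tests), tissue was fitted on 12 averages with population as a block (5 residual degrees of freedom), days on 30 averages per tissue with population, day and regime by day (16), and regime on 6 population averages (4). P-values were adjusted over all 16637 transcripts by Benjamini-Hochberg, and a call was an adjusted p below 0.05. The changes of the 2 genes were compared by an exact sign-flip permutation test over 6 populations. The day-1 score used the 200 transcripts that differed most from the later days in each direction. The fits were tested on simulated arrays with the spread between biological replicates alone. These arrays held no differences between populations, so they cannot show how the fits behave where populations differ.

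The members, the lists and the tests were chosen with earlier results of these data known. Other transcripts are named by a rule, the highest Pearson correlations with a member over 30 averages. Names came from RefSeq's gene table for assembly Release 6 plus ISO1 MT, where both members were found by transcript number. No sequence of a member was at hand. Alternatives were 2 other scalings, a filter on dim transcripts, no trend, single biological replicates, sets of arrays left out, populations left out and a replicate block. The set of 10 arrays of low correlation was chosen after seeing the data.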

Additional observations from a re-analysis of the deposited data

Results flagged for a closer look

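A single array stood far from the others of its group for mio. In heads of selection populations on day 1, the lowest of the 6 arrays had 8.51, the nearest other array 9.23 and the highest 9.64, so that the gap took 0.636 of the range, above Dixon's 95% bound for 6 values. It was biological replicate 1 of population 3, whose median correlation with the other arrays of its group was also low (0.922). It was 1 flag among 40 groups of arrays, and chance flags about 1 in 20.

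The change of Wdr24 from day 1 to day 5 differed between tissues, by -0.79 (log2) in heads minus abdomens (SE 0.188, adjusted p 0.00148 in limma, 5 of 6 populations). The same test called 41.3% of all transcripts.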

How the results depend on the processing

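Of the 16 settings, the replicate block was fitted for regime alone. For the 14 results of the members that passed the test, the other settings gave 204 alternative values. All 204 had the same direction and 202 passed. Some of these values are no check, since the setting leaves out no array that the result uses. An example is the rise of Wdr24 in abdomens without the 5 heads of opposite score, which stays at 0.76. The same holds for some values of the results that did not pass. The 2 that did not were Wdr24 by tissue on day 1 after quantile normalization over all arrays (-0.28, adjusted p 0.151) and after median centring (-0.33, adjusted p 0.0704). The rise of Wdr24 in abdomens ran from 0.58 to 0.85 and its tissue difference from -0.96 to -0.63, and both passed throughout. For the 53 results that did not pass, none of 791 alternative values passed, and 58 of them, in 20 results, had the other sign. With transcripts above the median signal alone, mio did not pass the filter and has no value.

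Population numbers were not taken as pairs, since the labels do not tie the pairs to numbers. Same-numbered populations deviated together with r of 0.256, 0.0647 and 0.314 in heads and -0.0335, 0.352 and 0.436 in abdomens. Differently numbered ones had r from -0.35 to 0.18 in heads and from -0.593 to 0.336 in abdomens. The same number gave the highest r for each control population in heads, and for control populations 2 and 3 in abdomens. Whether equal numbers are pairs was not tested. With population number as a replicate block, the regime difference was 0.12 for mio (adjusted p 0.541) and 0.03 for Wdr24 (0.866) in heads and -0.07 and -0.18 in abdomens (adjusted p 1 for both), and no call of the members changed.

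Counts over all transcripts moved by more than 1.5 times in several comparisons. Transcripts called for day 5 against day 1 in heads numbered 560 to 4580 (3249 as deposited), for day 50 against day 5 55 to 953 in heads (293) and 34 to 287 in abdomens (152), with a tissue difference in 12 to 618 (176), and over the adult days 10 to 490 in heads (116) and 24 to 246 in abdomens (157). For regime in heads, 0 were called as deposited and up to 2471 on day 5, 458 on day 1 and 574 for the difference in the change from day 1 to day 5, each without control population 2, and up to 1 over all days and on day 50. In abdomens the count for regime ran from 0 to 3 on days 5 and 30 (1 and 0 as deposited) and from 0 to 2 for the change from day 1 to day 5 (1).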
